A study of Mus musculus with 6 samples.

Results

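The genes described here encode the nuclear subunits of the mitochondrial oxidative phosphorylation system, with the assembly factors that share their symbols. They were taken by symbol from the protein-coding genes of curated RefSeq on mouse genome build mm10, as every gene whose symbol starts with Nduf, Uqcr, Cox4i, Cox5, Cox6, Cox7, Cox8 or Atp5, together with Sdha, Sdhb, Sdhc and Sdhd. This gave 95 of 21000 protein-coding genes, and the other 20905 served as comparison. By symbol, 40 belonged to complex I, 8 were complex I assembly factors, 4 belonged to complex II, 8 to complex III, 18 to complex IV and 17 to complex V. A gene was counted as having a promoter peak when the centre of an Lsd1 peak lay within 2000 bp of any of its transcription start sites (TSSs).

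Lsd1 is a histone demethylase that removes methyl groups from lysines 4 and 9 of histone H3. ChIP-seq, which sequences the DNA that an antibody pulls down from fixed chromatin, was performed with an antibody against the Lsd1 C-terminus in C2C12 cells, a mouse myoblast line, at passages 3 to 5 and on day 1 of differentiation. The myogenic library came from wild-type cells in medium with 2% horse serum. The wild-type adipogenic library came from cells in medium with 10% FCS, 1 µM rosiglitazone, 5 µM dexamethasone, 850 nM insulin, 0.5 mM isobutylmethylxanthine, 1 nM T3 and 125 nM indomethacin. The LSD1(OE) library came from a G418-selected C2C12 line with lentiviral, tetracycline-dependent Flag-tagged LSD1 in the same adipogenic medium. That line received doxycycline before and during differentiation, and no doxycycline is given for the wild-type cells, so LSD1 level, line and doxycycline cannot be told apart. Each condition had 1 ChIP library and 1 input library, and every difference below is therefore between single libraries, without replicates and without a test. Peak lists hold no expression, so the identity of the cells was not checked against marker genes.

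Oxidative phosphorylation passes electrons from NADH and succinate through complexes I and II to complex III and, through cytochrome c, to complex IV, which reduces oxygen. The protons pumped on the way drive ATP synthase, complex V. A handful of subunits of complexes I, III, IV and V come from mitochondrial DNA and all others from nuclear genes, several of which have separate forms for muscle, testis or other tissues. The pathway is a main source of ATP in oxidative muscle fibers, and its passage of electrons is a source of heat in brown adipocytes.

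The lists held 43426 peaks in the myogenic library, 18893 in the wild-type adipogenic library and 33533 in the LSD1(OE) library. In that order the filtered ChIP tags numbered 46155625, 63915769 and 55193310 and the filtered input tags 87508211, 81567427 and 100711088, so the longest list came from the library with the fewest ChIP tags. The smallest peaks had 27, 35 and 30 tags, and weaker signals are not visible in these lists. The score is −10 log10 of the Poisson p-value of a peak as MACS gives it, with 50 at the authors' cut-off. It was computed after the ChIP tags had been scaled up 1.90, 1.28 and 1.82 times to the input, so scores are compared within a library. All intervals are 95% intervals that cover counting error only.

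Most oxidative phosphorylation genes carried Lsd1 at their promoter in myogenic medium, and fewer than 1 in 2 did in either adipogenic library. In the myogenic library 78 of 95 did (82.1%, with a Wilson interval of 73.2 to 88.5%), and 51.4% of the other protein-coding genes. In the wild-type adipogenic library 36 did (37.9%, 28.8 to 47.9%), against 29.9% of the others. In the LSD1(OE) library 41 did (43.2%, 33.7 to 53.2%), against 41.2% of the others. The members thus exceeded the background by 30.7 percentage points (interval of the difference 21.8 to 37.1) in the myogenic library. The intervals of the differences in the wild-type adipogenic library, 7.95 points (−1.17 to 18.0), and in the LSD1(OE) library, 2.00 points (−7.53 to 12.1), included 0. With an FDR under 0.1% the members with a peak numbered 12 in the wild-type adipogenic and 22 in the LSD1(OE) library, and the adipogenic difference was −5.14 points. With 18893 peaks in every library they numbered 60 (63.2%) in the myogenic, 36 in the wild-type adipogenic and 29 (30.5%) in the LSD1(OE) library. The LSD1(OE) difference was then −1.76 points. With the nearest TSS only, 31 and 30 members had a wild-type adipogenic and an LSD1(OE) peak. The order of the 2 adipogenic libraries thus depended on these settings.

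CpG dinucleotides, which are dense at the promoters of broadly expressed genes, moved with these shares. The ratio of observed to expected CpG within 500 bp of a TSS had a median of 0.733 over the members and 0.614 over the others, and it was at least 0.6 at 78 of 95 members (82.1%) and at 51.4% of the others. Compared with CpG-rich genes only, the picture changed. Of the 78 CpG-rich members, 70 (89.7%), 33 (42.3%) and 39 had a promoter peak in the myogenic, wild-type adipogenic and LSD1(OE) libraries, and of the 10736 other CpG-rich genes 80.1%, 48.5% and 64.9% did. In the LSD1(OE) library all members differed from the other CpG-rich genes by −21.7 points (−31.3 to −11.6), and the CpG-rich members by −14.9 points (−25.7 to −4.00), or −17.6 with equal peak numbers. In the myogenic library the same differences were 2.01 points (−6.93 to 8.47), 9.65 points (0.92 to 14.7) and 2.63 points (−8.35 to 11.8). The last 2 of these comparisons were chosen after seeing the data. Of the 17 members under a ratio of 0.6, 8 had a peak in the myogenic library (47.1%, against 21.1% of other such genes), 3 in the wild-type adipogenic library (17.6% against 10.4%) and 2 in the LSD1(OE) library (11.8% against 16.1%). The part of CpG content in the difference was not tested.

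**Figure D1:**
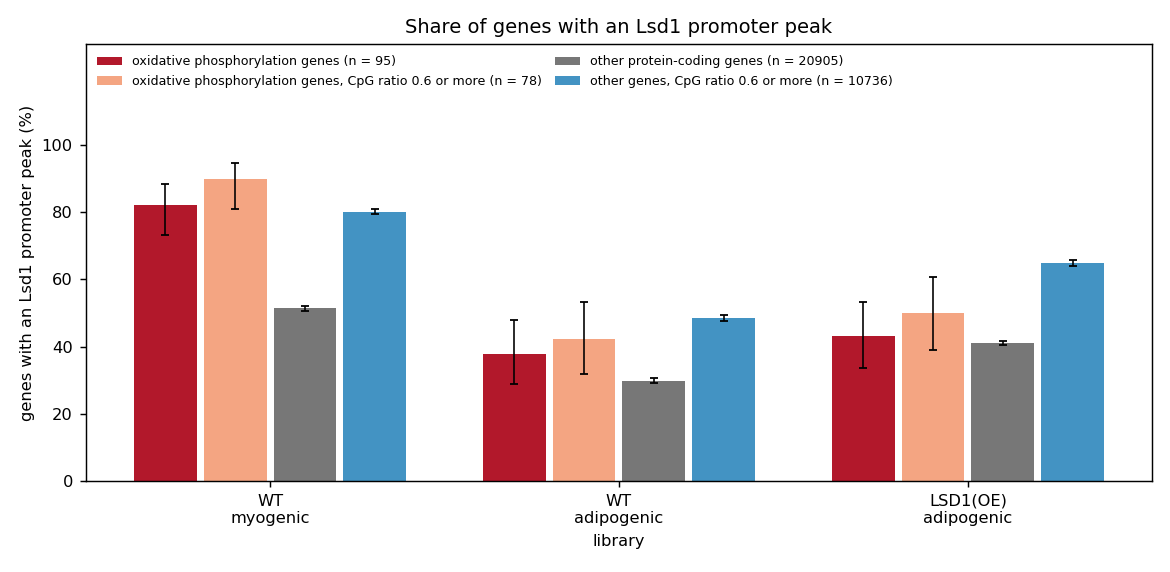
Bars give the percentage of genes with an Lsd1 promoter peak in each library, for the 95 oxidative phosphorylation genes, the 78 of them with a CpG ratio of at least 0.6, the 20905 other protein-coding genes and the 10736 of those with a CpG ratio of at least 0.6. Lines are 95% Wilson intervals, which cover counting error only. In the LSD1(OE) library the CpG-rich members sit below the other CpG-rich genes (39 of 78 against 64.9%). In the myogenic library the CpG-rich members sit above the other CpG-rich genes (89.7% against 80.1%), and all 95 members close to them (82.1%).

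Taken over the 3 libraries, the members divided into a few combinations. A promoter peak was listed in all 3 libraries for 20 (21.1%), against 26.3% of the other genes. In the myogenic library alone it was listed for 26 (27.4%), against 10.6%. A further 17 (17.9%, against 11.8%) had a peak in the myogenic and LSD1(OE) libraries and not in the wild-type adipogenic one. The reverse, a peak in both wild-type libraries and not in LSD1(OE), was found for 15 (15.8%), against 2.7% of the other genes. No library had a peak for 13 (13.7%), against 45.1%. The rarer combinations were the LSD1(OE) library alone with 3 members (3.16%, against 2.58%), both adipogenic libraries without the myogenic one with 1 (1.05%, against 0.445%) and the wild-type adipogenic library alone with 0 (against 0.474%). With an FDR under 0.1% the combination of both wild-type libraries without LSD1(OE) held 5 members (5.26%, against 2.18%), that of all 3 libraries 7 and the myogenic library alone 42. With equal numbers of peaks the last count was 16. Over all deposited peaks, and among combinations that held any member, the one missing only from LSD1(OE) had the highest ratio of the members' share to that of the other genes.

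**Figure D2:**
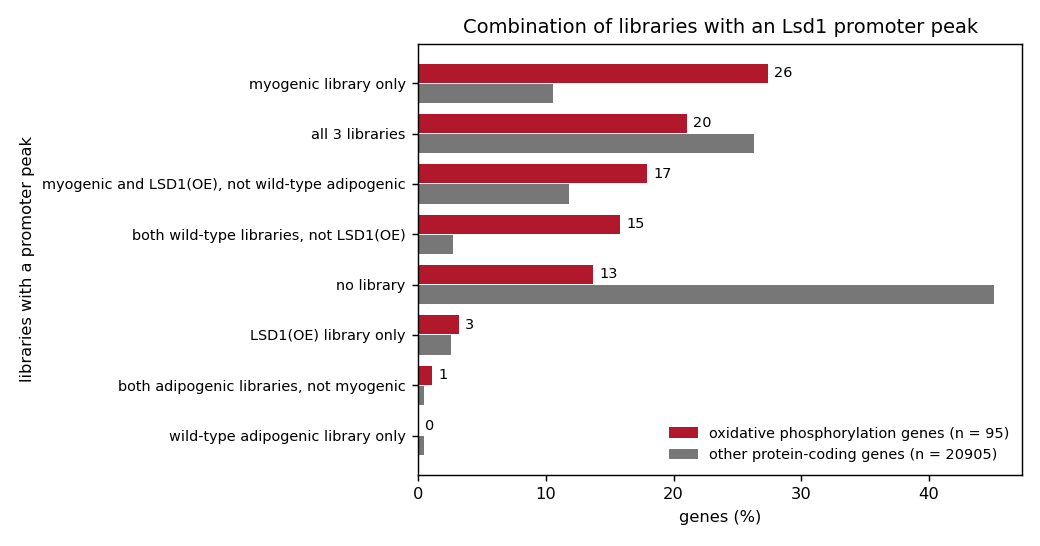
Horizontal bars give the percentage of genes with each combination of libraries that listed an Lsd1 promoter peak, for the 95 oxidative phosphorylation genes (numbers at the bars are gene counts) and for the 20905 other protein-coding genes. The combination of both wild-type libraries without LSD1(OE) held 15.8% of the members and 2.7% of the other genes.

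**Figure D3:**
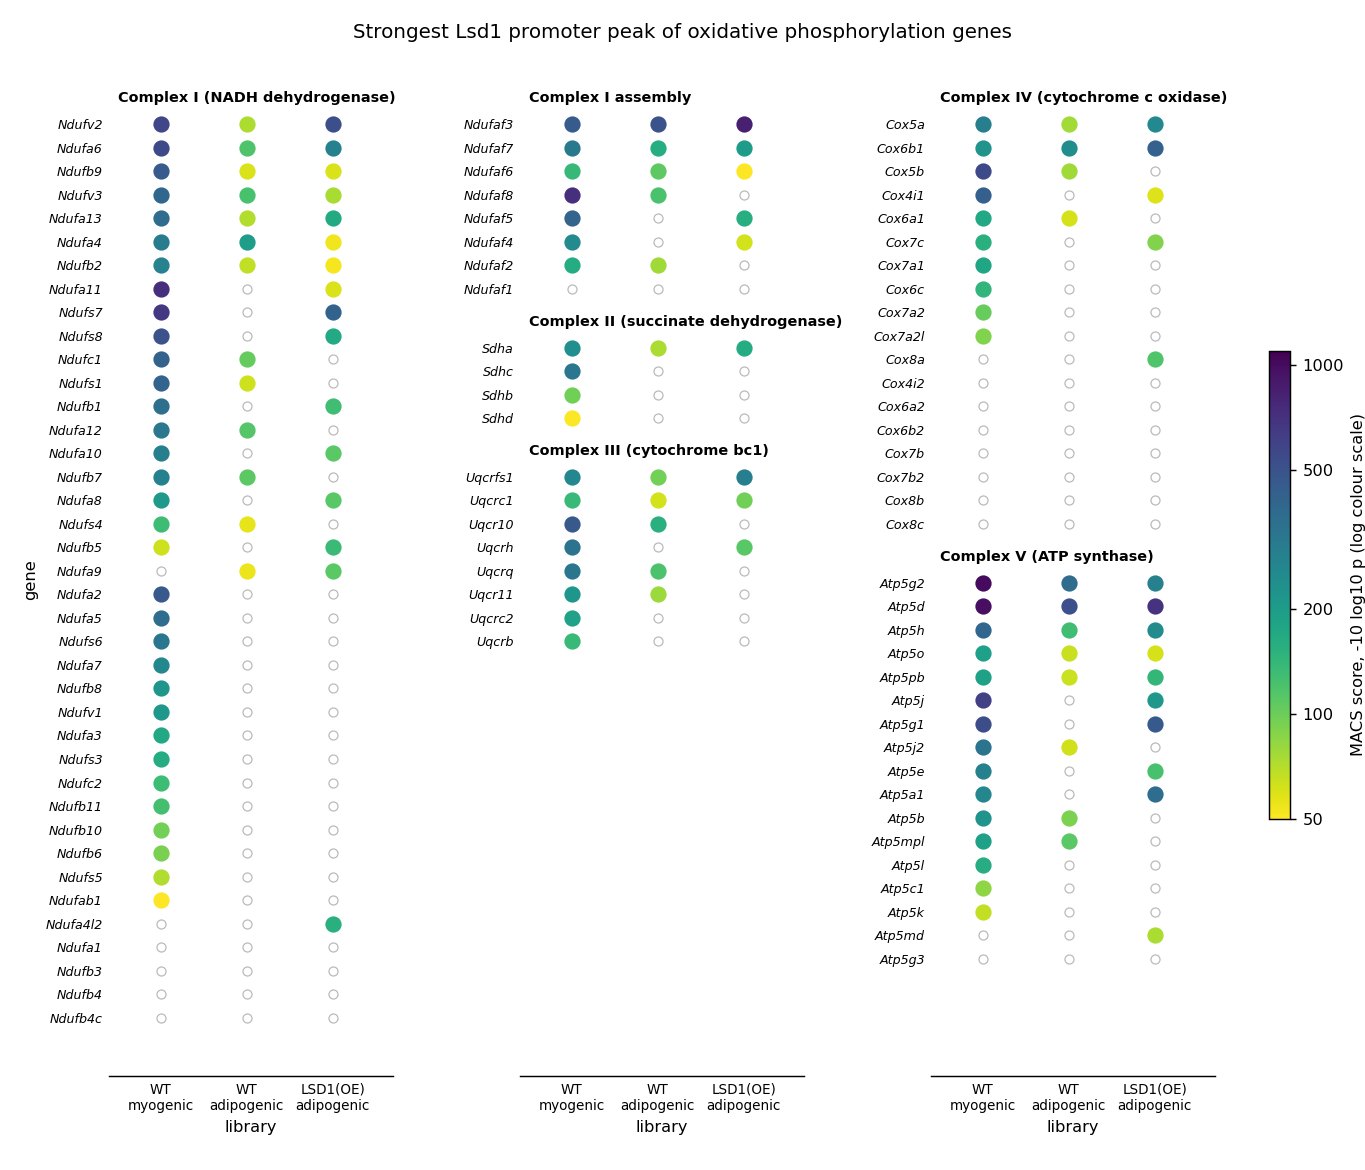
Each row is an oxidative phosphorylation gene, grouped by complex from its symbol, and each column 1 library. A filled circle is coloured by the MACS score (log colour scale) of the strongest Lsd1 promoter peak and an open circle means that no promoter peak was listed; complex III was filled in the myogenic column for 8 of 8 genes, and complex IV for 10 of 18.

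Complex I takes electrons from NADH. Of its 40 genes, 34 had a promoter peak in the myogenic, 13 in the wild-type adipogenic and 17 in the LSD1(OE) library. These were 85.0, 32.5 and 42.5%, against 51.4, 29.9 and 41.2% of the other protein-coding genes, the background for the groups below too. In both adipogenic libraries the Wilson intervals (20.1 to 48.0 and 28.5 to 57.8%) included the background. The 7 nuclear core subunits of complex I hold the flavin and the iron-sulfur clusters or surround the quinone site. All had a myogenic peak, 2 a wild-type adipogenic peak and 4 an LSD1(OE) peak. Ndufv2, an iron-sulfur subunit next to the flavin site, was the core gene with a peak in all 3, with scores of 571, 73.5 and 522 in the myogenic, wild-type adipogenic and LSD1(OE) libraries. Ndufs1, the largest core subunit, had 409 and 63.6 in the wild-type libraries and no peak in LSD1(OE).

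The other core genes lacked a wild-type adipogenic peak. Ndufs7, which carries the last iron-sulfur cluster before quinone, had 663 in the myogenic and 419 in the LSD1(OE) library. Ndufs8, also an iron-sulfur protein, had 507 and 170 there. Ndufv1, which binds NADH and the flavin, and Ndufs3 were listed in the myogenic library only, at 214 and 164.

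Among the 33 remaining complex I genes, 27 had a myogenic, 11 a wild-type adipogenic and 13 an LSD1(OE) peak. Those with a peak in the myogenic library only included the accessory subunits Ndufa2 (score 469), Ndufa5 (371), Ndufs6 (325), Ndufa7 (261), Ndufb8 (220), Ndufa3 (172), Ndufc2 (132) and Ndufb11 (127). The weakest of this kind was Ndufab1, the mitochondrial acyl carrier protein, at 50.5 with 29 tags, close to the limit of the list. Ndufa11, a membrane subunit, had the strongest complex I peak of the myogenic library (score 732, 179 tags) and none in the wild-type adipogenic library. Its LSD1(OE) peak, at 59.7 with 35 tags, was centred 1685 bp upstream of the TSS instead of 486 bp. Ndufa9, a subunit of the arm that faces the matrix, was the only member with a peak in both adipogenic libraries and not in the myogenic one, with scores of 54.8 and 111.

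Ndufa1, Ndufb3, Ndufb4 and Ndufb4c had no promoter peak in any library. The first 3 lay in CpG-rich sequence, with ratios of 0.91, 0.75 and 0.71, and Ndufb4c at 0.50. The myogenic peak nearest to Ndufb3 was centred 66396 bp away. Ndufa4, first assigned to complex I and since placed in cytochrome c oxidase, had peaks in all 3 libraries with scores of 305, 199 and 53.2. Its paralog Ndufa4l2, which responds to hypoxia and has a CpG ratio of 0.17, was counted in the LSD1(OE) library only, at 154.

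That call rested on the window. The LSD1(OE) peak of Ndufa4l2 was centred 1951 bp upstream of the TSS, the farthest inside the limit in that library. A wild-type adipogenic peak with a score of 357 and 254 tags was centred 2247 bp upstream, the nearest outside, and a myogenic peak 2317 bp upstream. Peaks therefore lay upstream of Ndufa4l2 in all 3 libraries and the window separated them. In the myogenic library the farthest inside was a second, weaker peak of Atp5g2 at 1977 bp upstream (score 131) and the nearest outside was at Ndufb2, 2137 bp downstream (53.8). In the wild-type adipogenic library the farthest inside was that of Ndufs1 at 499 bp upstream, and in LSD1(OE) the nearest outside was at Uqcr10, 2156 bp upstream with a score of 57.5.

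The complex I assembly factors help build the complex and are not part of it. Of 8, 7 had a myogenic, 5 a wild-type adipogenic and 5 an LSD1(OE) peak (87.5, 62.5 and 62.5%). Ndufaf3 had scores of 458, 501 and 842 with 111, 173 and 159 tags, on chr9:108566626-108568015, chr9:108566543-108568054 and chr9:108566564-108567882. The centres of these 3 peaks lay in an exon outside the coding sequence, 116, 138 and 213 bp downstream of the TSS. It was the strongest member of the LSD1(OE) library. Ndufaf8 had a high myogenic score, 720.5, and 122 in the wild-type adipogenic library, without a peak in LSD1(OE). Ndufaf2 had 164 and 77.3 in the wild-type libraries and likewise none in LSD1(OE). Ndufaf1 had no promoter peak in any library.

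Complex II, succinate dehydrogenase, belongs both to the respiratory chain and to the tricarboxylic acid cycle, and all 4 of its genes had a myogenic peak. Sdha, the flavoprotein, had scores of 238, 73.7 and 164 in the 3 libraries. The iron-sulfur subunit Sdhb (97.7) and the membrane anchors Sdhc (326) and Sdhd (51.2) were listed in the myogenic library only. The Sdhd peak, at 28 tags, was near the smallest count the list holds. Only the catalytic subunit of this complex therefore had a promoter peak in the adipogenic libraries, 1 of 4 in each.

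Complex III passes electrons from quinol to cytochrome c. It had a myogenic peak at 8 of 8 genes, a wild-type adipogenic peak at 5 (62.5%) and an LSD1(OE) peak at 3 (37.5%). Uqcrfs1, the Rieske iron-sulfur protein, had scores of 267, 96.0 and 295, and the core protein gene Uqcrc1 had 137, 61.6 and 98.1. The other core protein gene, Uqcrc2 (186), and Uqcrb (137) were listed in the myogenic library only. Uqcrh, the hinge protein, had 338 in the myogenic and 112 in the LSD1(OE) library. The small subunits Uqcr10 (471 and 154), Uqcrq (327 and 119) and Uqcr11 (216 and 79.5) had peaks in both wild-type libraries and none in LSD1(OE).

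Complex IV, cytochrome c oxidase, has the most tissue-specific forms, and its shares were the lowest of the complexes in both wild-type libraries, with peaks at 10, 4 and 5 of 18 genes in the myogenic, wild-type adipogenic and LSD1(OE) libraries. Where a subunit has a broadly expressed and a restricted form, the restricted form mostly lacked a peak. Cox4i1, the common form of subunit 4, had scores of 437 in the myogenic and 58.8 in the LSD1(OE) library, and Cox4i2 had no peak in any. Cox6a1 had 173 and 60.9 in the wild-type libraries and none in LSD1(OE), and the heart and muscle form Cox6a2 had none at all. Cox6b1 had 224, 241 and 426 in the 3 libraries, and the testis form Cox6b2 none. For subunit 7b, neither Cox7b nor the testis form Cox7b2 had a peak. The restricted forms without a peak had CpG ratios of 0.25 to 0.47.

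Subunit 7a departed from this order, since its muscle form carried a peak. Cox7a1, the heart and skeletal muscle form, had a CpG ratio of 0.26 and a myogenic peak with a score of 176 and 59 tags on chr7:30183729-30184654, centred 20 bp downstream of the TSS. The liver form Cox7a2 had a myogenic peak with a score of 102, and Cox7a2l, which links complexes III and IV into supercomplexes, 89.3. None of the 3 had a peak in either adipogenic library. For subunit 8, the common form Cox8a was listed in the LSD1(OE) library only, with a score of 117 and 59 tags on chr19:7216926-7217869, and its centre lay in an intron 219 bp downstream of the TSS. The muscle form Cox8b and the testis form Cox8c had no peak. The Cox7a and Cox8 promoters are shown to set these CpG-poor and CpG-rich forms side by side. They are the 250 bases before the TSS from RefSeq on GRCm38.p6 (mm10), on the strand of the gene, with every CG in capitals.
Cox7a1 (chr7:30183921-30184170, plus strand, 4 CG): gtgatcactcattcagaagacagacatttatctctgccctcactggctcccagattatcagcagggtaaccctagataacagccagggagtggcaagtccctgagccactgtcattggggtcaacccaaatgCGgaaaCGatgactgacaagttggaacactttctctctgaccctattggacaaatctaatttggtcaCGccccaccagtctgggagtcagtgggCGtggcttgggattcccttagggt
Cox7a2 (chr9:79759854-79760103, minus strand, 14 CG): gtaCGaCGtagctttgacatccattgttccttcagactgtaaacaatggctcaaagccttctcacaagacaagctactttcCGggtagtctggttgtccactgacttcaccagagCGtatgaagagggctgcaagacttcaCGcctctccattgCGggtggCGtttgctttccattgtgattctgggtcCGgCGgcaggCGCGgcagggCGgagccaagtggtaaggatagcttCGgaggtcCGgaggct
Cox8a (chr19:7217617-7217866, minus strand, 11 CG): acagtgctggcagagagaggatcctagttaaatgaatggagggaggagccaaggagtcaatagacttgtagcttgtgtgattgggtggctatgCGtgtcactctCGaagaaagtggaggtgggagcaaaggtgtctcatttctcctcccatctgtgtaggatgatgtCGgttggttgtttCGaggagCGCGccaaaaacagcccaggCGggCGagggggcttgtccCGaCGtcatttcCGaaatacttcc
Cox8b (chr7:140900447-140900696, minus strand, 1 CG): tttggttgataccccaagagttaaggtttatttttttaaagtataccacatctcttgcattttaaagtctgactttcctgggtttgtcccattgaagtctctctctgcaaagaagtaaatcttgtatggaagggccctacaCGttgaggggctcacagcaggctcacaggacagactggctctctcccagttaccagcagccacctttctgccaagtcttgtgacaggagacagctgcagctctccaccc

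The promoters of Cox7a1 and Cox8b held 4 and 1 CG, against a median of 15 over the 77 members with a sequence in the table and 11 over 16776 other genes. Both encode muscle forms, and of these 2 only Cox7a1 had a peak, in the myogenic library. Among the remaining complex IV genes, Cox5a had scores of 293, 77.1 and 257, Cox5b 554 and 77.4 in the wild-type libraries, Cox7c 154 in the myogenic and 89.7 in the LSD1(OE) library, and Cox6c 145 in the myogenic library only.

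Complex V, ATP synthase, had peaks at 15, 8 and 10 of 17 genes (88.2, 47.1 and 58.8%) and held the strongest members of both wild-type libraries. Atp5d, the delta subunit of the catalytic head, had scores of 976, 517 and 707 with 214, 216 and 203 tags. Its peaks, centred upstream of the TSS by 448, 312 and 336 bp, ranked first by score among the members in the wild-type adipogenic library and second in the others. The beta subunit gene Atp5b had 225 and 91.9 in the wild-type libraries and none in LSD1(OE). The alpha subunit gene Atp5a1 had the opposite pattern in adipogenic medium, with 263 in the myogenic library, none in the wild-type adipogenic library and 367 in LSD1(OE). The gamma subunit gene Atp5c1 was listed in the myogenic library only, at 85.0, and the epsilon subunit gene Atp5e had 289 in the myogenic and 123 in the LSD1(OE) library. The genes of the catalytic head were thus not all listed in the same libraries.

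The membrane ring of subunit c is encoded by 3 genes whose mature protein is the same and they differed in their peaks. Atp5g2 had the highest score of all members in the myogenic library, 1004 with 211 tags on chr15:102670237-102672384, and 374 and 290 with 246 and 104 tags in the wild-type adipogenic and LSD1(OE) libraries. Atp5g1 had 533 and 466 with 139 and 141 tags in the myogenic and LSD1(OE) libraries and no wild-type adipogenic peak. Atp5g3 had no promoter peak in any library although its CpG ratio, 0.81, was the highest of the 3 (0.69 for Atp5g1, 0.75 for Atp5g2), and the nearest peaks were centred 18057 to 18388 bp away. The 250 bases before the TSS of the same source are given for each, with every CG in capitals.
Atp5g1 (chr11:96075632-96075881, minus strand, 15 CG): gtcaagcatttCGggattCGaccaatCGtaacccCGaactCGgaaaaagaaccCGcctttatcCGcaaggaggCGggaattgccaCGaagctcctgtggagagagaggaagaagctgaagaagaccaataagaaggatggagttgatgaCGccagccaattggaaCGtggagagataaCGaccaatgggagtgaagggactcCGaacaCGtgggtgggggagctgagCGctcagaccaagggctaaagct
Atp5g2 (chr15:102671048-102671297, minus strand, 19 CG): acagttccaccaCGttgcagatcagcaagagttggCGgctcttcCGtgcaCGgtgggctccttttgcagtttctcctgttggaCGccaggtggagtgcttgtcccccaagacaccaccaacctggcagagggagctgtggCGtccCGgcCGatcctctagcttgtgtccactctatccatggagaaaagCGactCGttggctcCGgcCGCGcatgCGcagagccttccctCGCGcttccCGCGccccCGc
Atp5g3 (chr2:73911327-73911576, minus strand, 15 CG): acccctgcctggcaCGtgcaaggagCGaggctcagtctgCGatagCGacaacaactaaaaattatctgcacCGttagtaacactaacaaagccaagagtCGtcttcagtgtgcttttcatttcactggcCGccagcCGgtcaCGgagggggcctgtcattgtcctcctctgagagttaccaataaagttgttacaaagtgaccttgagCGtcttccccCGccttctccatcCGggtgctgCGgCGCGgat

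Atp5g1 and Atp5g3 held the same number of CG in these windows and differed in their peaks in the myogenic and LSD1(OE) libraries. In the stalk, Atp5o (193, 64.9 and 60.8), Atp5pb (188, 63.7 and 142) and Atp5h (396, 129 and 248) had peaks in all 3 libraries. The stalk subunit Atp5j had 604 in the myogenic and 211 in the LSD1(OE) library. The small membrane subunits Atp5l (160) and Atp5k (66.6) were listed in the myogenic library only, Atp5j2 (333 and 62.9) and Atp5mpl (188 and 110) in both wild-type libraries, and Atp5md (74.3) in LSD1(OE) only.

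The 15 members with a peak in both wild-type libraries and none in LSD1(OE) were Atp5b, Atp5j2, Atp5mpl, Cox5b, Cox6a1, Ndufa12, Ndufaf2, Ndufaf8, Ndufb7, Ndufc1, Ndufs1, Ndufs4, Uqcr10, Uqcr11 and Uqcrq. They came from complexes I, III, IV and V. Their myogenic scores ran from 131 to 720.5 with a median of 324, against a median of 310 for the 20 members with peaks in all 3 libraries. Their wild-type adipogenic scores ran from 55.9 to 154 with a median of 91.9, against 102 for those 20. By median, the members without an LSD1(OE) peak were thus no weaker in the myogenic library and slightly weaker in the wild-type adipogenic one. In LSD1(OE) the nearest peak to these 15 lay 2156 to 55827 bp from the TSS, and within 5000 bp for 1 of them, Uqcr10.

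Of the 36 members with a wild-type adipogenic peak, 21 (58.3%, 42.2 to 72.9%) also had an LSD1(OE) peak, and 89.4% of the other genes with a wild-type adipogenic peak did. The difference was −31.1 points (−47.2 to −16.5). By the score of the wild-type adipogenic peak, the members' share was 11 of 19 at 50 to under 100 (57.9%, against 78.6% of other genes), 6 of 13 at 100 to under 200 (46.2% against 91.7%) and 4 of 4 at 200 or more (against 97.7%). In the other direction, 21 of the 41 members with an LSD1(OE) peak (51.2%) had a wild-type adipogenic peak, against 65.0% of the others. Nearly all of either adipogenic set were in the myogenic list too, 35 of 36 (97.2%, others 96.9%) and 37 of 41 (90.2%, others 92.7%).

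The same was seen from the myogenic side. Of the 78 members with a myogenic peak, 37 (47.4%, 36.7 to 58.4%) also had an LSD1(OE) peak, against 74.2% of the other genes with a myogenic peak and 77.3% of those with a CpG ratio of at least 0.6. For the wild-type adipogenic library the share was 44.9%, against 56.4%. At myogenic scores of 50 to under 100, 100 to under 200, 200 to under 400 and 400 or more, 1 of 10, 5 of 19, 18 of 30 and 13 of 19 members also had an LSD1(OE) peak (10.0, 26.3, 60.0 and 68.4%). The other genes reached 37.9, 55.5, 74.3 and 94.0%. The members' share was lower in each of the 4 ranges. For the wild-type adipogenic library the order was mixed, with 0 of 10, 8 of 19, 16 of 30 and 11 of 19 members (42.1, 53.3 and 57.9% in the upper 3) against 14.1, 29.7, 51.8 and 85.2%. These score ranges were chosen after the values had been seen.

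**Figure D4:**
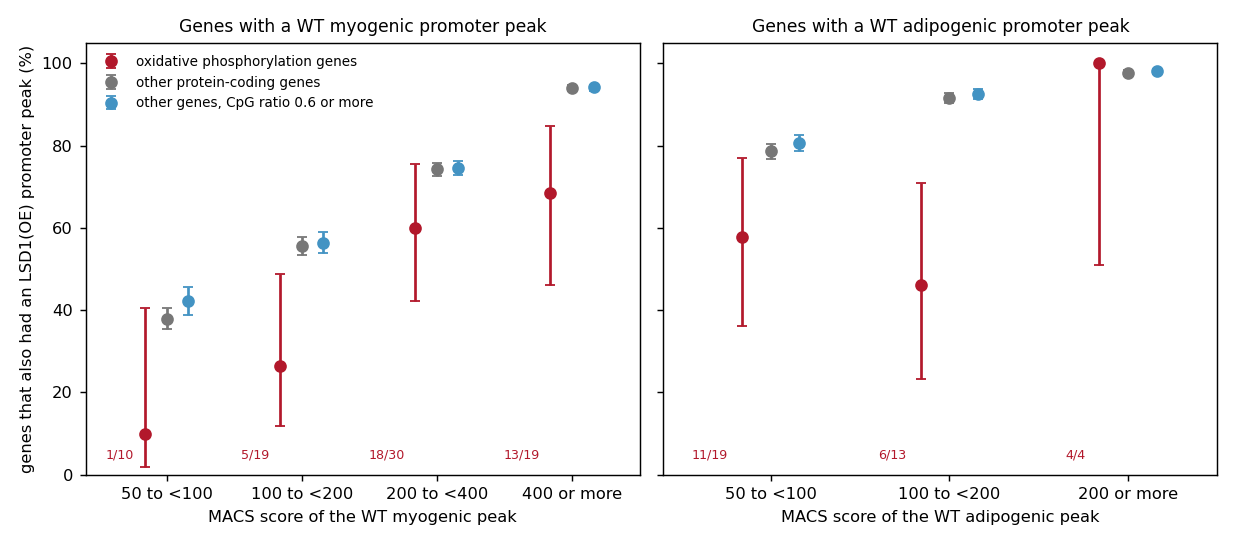
Points give the percentage of genes that also had an LSD1(OE) promoter peak, among genes with a wild-type myogenic peak (left) and with a wild-type adipogenic peak (right), by the MACS score of that wild-type peak. Lines are 95% Wilson intervals, which cover counting error only, and the fractions are counts of oxidative phosphorylation genes; in the left panel the members lie below the other genes in all 4 ranges, at 68.4% against 94.0% in the highest.

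Where the members had peaks, these were somewhat smaller than elsewhere and sat closer to the TSS. The median score of the strongest promoter peak was 265, 93.9 and 142 in the myogenic, wild-type adipogenic and LSD1(OE) libraries, against 324, 142 and 205 over the other genes. Median tags were 82, 74 and 68, against 96, 97 and 87. In the wild-type adipogenic library 19 of 36 members had a score under 100 (52.8%, against 32.5%), so many of these calls lay near the cut-off. The centre lay at a median distance of 90, 119 and 171 bp from the TSS, against 177, 207 and 212 bp. The peak covered the TSS at 78 of 78, 35 of 36 and 38 of 41 members, against 89.3, 86.1 and 85.3% of the others. The centre was upstream of the gene at 40, 21 and 24 members and in an intron at 5, 5 and 7, and otherwise in an exon.

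**Figure D5:**
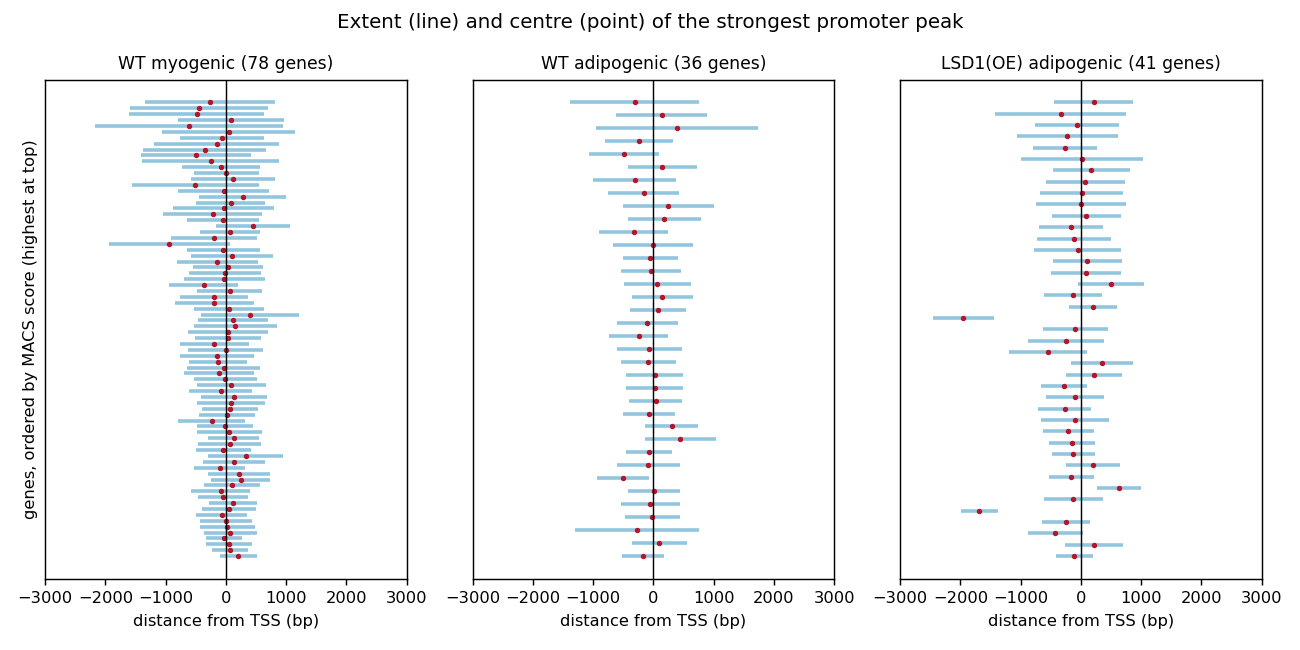
Each line is the extent of the strongest promoter peak of 1 oxidative phosphorylation gene relative to its TSS (vertical line, downstream to the right), with its centre as a point and genes ordered by score within each library. The peak covered the TSS at 78 of 78 genes in the myogenic, 35 of 36 in the wild-type adipogenic and 38 of 41 in the LSD1(OE) library.

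Tag density allowed the strength of peaks listed in 2 libraries to be compared. It is given as tags per kb of the called peak per 1000000 filtered ChIP tags. Over the 35 members with both peaks, the median log2 ratio of wild-type adipogenic to myogenic density was −0.39 (−0.48 to −0.28). The other genes had a median of −0.46. The density was lower in the adipogenic library at 33 of the members (94.3%), against 96.4% of the other genes. For LSD1(OE) over myogenic the median was −0.26 (−0.43 to −0.16) over 37 members and −0.30 over the others. For LSD1(OE) over wild-type adipogenic it was 0.11 (−0.05 to 0.29) over 21 members and 0.16 over the others. Without division by the called length the first 2 medians were −0.61 and −0.62, so their size depends on the length of the peaks. In all 3 ratios as first given the members' interval included the median of the other genes.

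Ratios of single genes rest on few tags, and each is given with its counting interval. Ndufv2 had densities of 1.89, 1.06 and 1.75 in the 3 libraries, the lowest ratio of wild-type adipogenic to myogenic (log2 −0.84, −1.32 to −0.38) and the highest of LSD1(OE) to wild-type adipogenic (0.73, 0.27 to 1.20). In the former ratio Atp5j2 (−0.79, −1.29 to −0.31) and Ndufv3 (−0.75, −1.15 to −0.34) came next, and Ndufb7 (−0.06, −0.48 to 0.35), Cox6b1 (0.00, −0.46 to 0.47) and Ndufaf3 (0.05, −0.30 to 0.41) stood at the high end. The intervals of these 6 genes included the members' median of −0.39, except that of Ndufaf3. For LSD1(OE) over wild-type adipogenic, Ndufa4 was lowest (−0.56, −1.09 to −0.06), and its interval and that of Ndufv2 lay apart from the median of 0.11. Ndufaf6 (−0.24, −0.88 to 0.37), Ndufb9 (−0.23, −0.69 to 0.21), Cox5a (0.41, −0.07 to 0.89) and Uqcrfs1 (0.37, −0.08 to 0.82) had intervals that included it.

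For LSD1(OE) over myogenic, Ndufv3 (−0.81, −1.36 to −0.28) and Ndufb9 (−0.79, −1.25 to −0.36) lay below the median of −0.26 with their intervals. Ndufaf3 (0.34, −0.02 to 0.70) and Cox6b1 (0.25, −0.21 to 0.72) lay above it. Cox4i1 (−0.77, −1.31 to −0.24) and Atp5a1 (0.13, −0.29 to 0.56) had intervals that included it. These genes were picked as the extremes, so some distance from the median follows from the choice.

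The 5 strongest members by score were Atp5g2, Atp5d, Ndufa11, Ndufaf8 and Ndufs7 in the myogenic library (1004, 976, 732, 720.5 and 663). In the wild-type adipogenic library they were Atp5d, Ndufaf3, Atp5g2, Cox6b1 and Ndufa4 (517, 501, 374, 241 and 199). In LSD1(OE) they were Ndufaf3, Atp5d, Ndufv2, Atp5g1 and Cox6b1 (842, 707, 521.5, 466 and 426). Only Atp5d was among the 5 in each library.

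Some of these promoters are shared with a neighboring gene. A TSS of another gene on the opposite strand lay within 1000 bp upstream at 31 of 95 members (32.6%), against 11.6% of the other protein-coding genes. Atp5j shares its start region with Gabpa, which encodes a regulator of respiratory genes, so the peaks of these 2 genes, with scores of 604 and 211, were the same. Of the 31, 29 had a myogenic, 12 a wild-type adipogenic and 18 an LSD1(OE) peak, and of the 64 without such a neighbor 49, 24 and 23. The other protein-coding genes were not split in this way, so these counts have no background beside them. The TSS nearest the peak centre was that of the member itself at 70 of 78, 31 of 36 and 30 of 41 members, and at the remainder, such as Atp5h, Ndufa4 and Ndufb9 in all 3 libraries, it belonged to the neighbor. ChIP-seq cannot assign a peak between such a pair to either gene.

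The chromosome moved with the share of peaks as well. On chromosome 15, 67.4, 57.7 and 62.5% of the other genes had promoter peaks in the 3 libraries, and of the 5 members there 4, 3 and 3. On chromosome X, 20.5, 4.12 and 11.1% of the other genes had one, and of the 3 members 1, 0 and 0, with Ndufb11 as the one. Without chromosome 15 the members exceeded the others by 31.4, 7.77 and 1.86 points, and the part of the chromosomes in the difference was not tested.

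The promoter sequences were searched for the letters of motifs of factors known to act on respiratory genes. The window ran from 250 bases before to 50 after the TSS, both strands were read, and 77 of 95 members and 16776 other genes had an entry in the RefSeq table. Members without an entry included Atp5a1, Atp5mpl, Cox4i1, Cox4i2, Cox6a2, Cox6c, Cox8c, Ndufa2, Ndufa4l2, Ndufaf6, Ndufb4c, Ndufb9, Ndufs1, Sdhc, Uqcrb, Uqcrc2 and Uqcrq. The NRF1 letters GCGCATGCG, of the factor that drives many nuclear respiratory genes, were in 10 member promoters (13.0%) and in 2.66% of the others. The YY1 letters AAGATGGCG were in 8 (10.4%, others 2.18%), the GABP/ETS letters CCGGAAG in 19 (24.7%, others 13.3%) and the ERR letters TCAAGGTCA in 2 of 77 (others 0.37%). The Sp1 letters GGGCGG were in 35 (45.5%, others 50.7%) and TATAAA of the TATA box in 8 (10.4%, others 14.7%). Matches of different motifs overlapped in 1 member promoter, that of Ndufs3.

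Among promoters of genes with a CpG ratio of at least 0.6, the NRF1 letters were in 13.6% of members and 4.49% of others and the YY1 letters in 10.6 and 3.70%. The Sp1 letters were in 48.5 and 75.4%. All 10 members with the NRF1 letters, Atp5g2, Atp5k, Atp5l, Cox6a1, Ndufa11, Ndufa8, Ndufaf4, Ndufaf5, Uqcr11 and Uqcrc1, had a myogenic promoter peak, but 82.1% of all members did. Of the 8 with the YY1 letters, 4 (Atp5j2, Ndufaf8, Ndufc1 and Ndufs4) belonged to the 12 with a sequence that had peaks in both wild-type libraries and none in LSD1(OE). Of the same 12, 4 held the GABP/ETS letters, 5 the Sp1 letters, 2 the NRF1 letters, 1 the TATA box letters and 0 the ERR letters. The letters were not counted in other genes with this combination of peaks, so the counts among the 12 have no background beside them. The ERR letters were in Atp5g3, without a peak, and Sdhd. A match is a description of the letters and does not show that a factor was bound. Windows of 29 bases around the NRF1 and YY1 letters, in capitals and read on the strand of the gene, show where they lay. The YY1 letters of Atp5j2, Ndufaf8, Ndufc1 and Ndufs4 were just after the TSS. So were those of Ndufa9, Ndufs6 and Ndufs7, which had other combinations of peaks. Those of Atp5j, with peaks in the myogenic and LSD1(OE) libraries only, lay 88 bases before the TSS used for its window.
Atp5g2, NRF1 letters 42 bases before the TSS (chr15:102671071-102671099, minus strand): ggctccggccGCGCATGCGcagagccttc
Cox6a1, NRF1 letters 162 bases before the TSS (chr5:115349102-115349130, minus strand): caggaacgggGCGCATGCGcgctctcgct
Atp5j2, YY1 letters 23 bases after the TSS (chr5:145191500-145191528, minus strand): ccaggacttcAAGATGGCGtcactcggtg
Ndufaf8, YY1 letters 10 bases after the TSS (chr11:120098934-120098962, plus strand): ggcagggcccAAGATGGCGgcgccctcga
Ndufc1, YY1 letters 22 bases after the TSS (chr3:51408915-51408943, minus strand): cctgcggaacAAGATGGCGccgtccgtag
Ndufs4, YY1 letters 35 bases after the TSS (chr13:114388045-114388073, minus strand): cgtttgcctacaggAAGATGGCGgcggtc

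Genes that work with the members are given from lists of their own. Of 16 regulators of mitochondrial biogenesis, 13, 6 and 12 had a promoter peak in the myogenic, wild-type adipogenic and LSD1(OE) libraries (81.3, 37.5 and 75.0%). The other protein-coding genes had 51.4, 29.9 and 41.2%, and those with a CpG ratio of at least 0.6 had 80.1, 48.5 and 64.9%. Of the regulators, 93.8% had such a ratio. Peaks in all 3 libraries were listed for the coactivators Ppargc1b (529, 157 and 755) and Pprc1 (954, 116 and 242), the estrogen-related receptor gene Esrra (346, 57.2 and 297) and the genes of the mitochondrial transcription machinery Tfam (597, 52.6 and 257), Tfb1m (380, 213 and 638) and Polrmt (727.5, 281 and 254). The respiratory regulators Nrf1 (479 and 270), Gabpa (604 and 211), Gabpb1 (912 and 209), Yy1 (267 and 62.0) and Tfb2m (451 and 76.6) were listed in the myogenic and LSD1(OE) libraries and not in wild-type adipogenic.

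Ppargc1a, the main coactivator of mitochondrial biogenesis, and the nuclear receptor gene Ppard were listed in the myogenic library only (92.4 and 212), Ppara in LSD1(OE) only (53.5), and Esrrb and Esrrg in none. Of those with a myogenic peak, 11 of 13 regulators (84.6%) also had an LSD1(OE) peak. Among 44 matched respiratory chain genes outside the symbol rule, such as cytochrome c1 (Cyc1, 932, 163 and 103) and the complex III assembly factor Bcs1l (1132, 649 and 672), 31 of 40 (77.5%) did. Of 46 genes in that list Usmg5 and Mp68 were not matched by symbol. Of 14 tricarboxylic acid cycle genes, including Idh2 (506, 71.1 and 245), 10 of 12 (83.3%) did. The background for these lists was 74.2% of all protein-coding genes outside the members with a myogenic peak. It was 77.3% of those with a CpG ratio of at least 0.6.

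Ribosomal protein genes are, like the members, broadly expressed and CpG-rich. Of those with a myogenic peak, 62.9% of 70 mitochondrial ribosomal protein genes, led by Mrpl54 (1469, 369 and 287) and Mrpl34 (1362, 396 and 988.5), and 60.6% of 71 cytosolic ones, such as Rpl7 (899, 150 and 211), also had an LSD1(OE) peak, against the 47.4% of members. Of those with a wild-type adipogenic peak, 68.8% of 32 and 71.4% of 28 also had one in LSD1(OE), against 58.3% of members and 89.4% of all other genes. The myogenic excess over the background was not particular to the members. In the myogenic library a promoter peak was listed for 89.7% of the 78 mitochondrial and 86.6% of the 82 cytosolic ribosomal protein genes, 90.9% of the other respiratory chain genes and 85.7% of the tricarboxylic acid cycle genes, against 82.1% of members. In the wild-type adipogenic library the shares were 41.0, 34.1, 45.5 and 42.9%, against 37.9%, and in LSD1(OE) 56.4, 53.7, 70.5 and 71.4%, against 43.2%. With structural subunits only, 85 members, the share of those with a myogenic peak that also had an LSD1(OE) peak was 45.7%.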

How the data were processed

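Lsd1 ChIP-seq of C2C12 cells was used from 3 ChIP libraries, each with its own input, grouped by the sample labels. The authors aligned 50 bp single reads to mm10 (the methods name Bowtie, the submitters' processing notes Bowtie2) and called peaks per library with MACS, version 1.4.2 per the file headers and 1.41 in the notes, at a p cut-off of 1e-05. The deposited columns are a count of ChIP tags per peak after duplicates had been limited to 2 ChIP and 3 input tags per position, a score (−10 log10 p, with the smaller library scaled up to the larger), a fold enrichment that is not on 1 scale in the 3 libraries and was not used, and an FDR in percent, under 1 for every peak as deposited. The separate lists of intervals held the same peaks.

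TSSs came from curated RefSeq transcripts of protein-coding genes on mm10. A gene with several promoter peaks was described by the one with the highest score. Tag density was the tag count per kb of peak per 1000000 filtered ChIP tags. With 1 library per condition no test was run: members are described by counts, shares with Wilson 95% intervals and medians with order-statistic intervals over genes, which are not replicates, beside all other protein-coding genes. Values were named for the 5 strongest members per library, members with a peak in no library or in 1 library (up to 15 by score), isoform families, complex II, peaks at the window's edges, the extremes of density, and regulators. Other members, the score ranges, the core complex I group and some alternatives were chosen after their values had been seen. Members and lists were chosen with earlier results of these data known. Values of some genes, which remain in the counts, are not reported here. The assignment of peaks was tested on simulated data. Alternatives changed the peak threshold, window, assignment, scaling and comparison genes. Python 3.11.15, NumPy 2.4.6, pandas 2.3.3 and SciPy 1.17.1 were used.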

Additional observations from a re-analysis of the deposited data

How the results depend on the processing

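Of 152 values recomputed under an alternative, 119 stayed within 1.5 times the count or within the interval and 33 moved. The LSD1(OE) difference in share was 2.00 points with an interval that included 0. In every comparison with CpG-rich genes it was below 0 with an interval that excluded 0. Among genes with a peak in at least 1 library it was too. Of all 95 members, 26 (27.4%, against 10.6% of other genes) entered that set by a myogenic peak alone. Such genes lack an LSD1(OE) peak by definition, and the part of this choice of genes in the lower LSD1(OE) share was not tested. With an FDR under 0.1%, 12 members had a wild-type adipogenic and 22 an LSD1(OE) peak, the adipogenic share differed from that of the other genes by −5.14 points, 7 members had peaks in all 3 libraries, 42 in the myogenic library only, 26 in none and 5 in both wild-type libraries without LSD1(OE). With a score of at least 100, 17 had a wild-type adipogenic peak (difference −2.32 points), 7 had peaks in all 3 libraries and 23 in none. With 18893 peaks in every library the last 2 counts were 13 and 28, and 16 were myogenic only. With the nearest TSS only, 20 had none and 10 had myogenic and LSD1(OE) peaks without wild-type adipogenic. With ChIP tags not scaled up, 12 had all 3 and 21 none. The differences in share in the myogenic, wild-type adipogenic and LSD1(OE) libraries were 2.01, −10.6 and −21.7 points against other genes with a CpG ratio of at least 0.6, 1.49, −10.6 and −25.0 among genes with a peak in at least 1 library, and, in alternatives added after seeing the data, 9.65, −6.18 and −14.9 with CpG-rich genes on both sides and 2.63, −6.18 and −17.6 with equal peak numbers as well. Without division by the called length the median log2 ratio to the myogenic library was −0.61 for wild-type adipogenic and −0.62 for LSD1(OE). The share of members with a wild-type adipogenic peak that also had an LSD1(OE) peak, a value chosen after seeing the data, differed from that of the other genes by −47.3 to −27.0 points under the alternatives run. The causes of these shifts were not tested. No paired analysis was possible because each condition has 1 ChIP library. A peak missing from a list may be a signal below its smallest peak, and 19 of 36 wild-type adipogenic peaks at members had scores under 100.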
